A study of Caenorhabditis elegans with 9 samples.

Results

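The division described here splits 6 of the 9 RNA-seq libraries of late L2 *C. elegans* larvae by the number in the library name rather than by genotype. The low-numbered group holds wild-type replicates 1 and 2 (library numbers 6 and 7) and *sma-9* replicate 1 (number 7), and the high-numbered group holds wild-type replicate 3 (number 9) and *sma-9* replicates 2 and 3 (numbers 8 and 10). The division was chosen from these same expression values, in which it had separated more genes than genotype did, so the difference between the groups is given as a description without any test. What the library number stands for is not given in the sources used here. The other 3 libraries, all *sma-3*, carry numbers 14, 15 and 16 and are shown only beside the division.

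The study compared whole worms of the wild-type strain N2, of *sma-3(wk30)* and of *sma-9(ok1628)*, mutants for a Smad and for the Schnurri cofactor that act in the DBL-1 BMP pathway of body size. Embryos from bleached adults were grown at 20 °C under 21% O2 to the late L2 stage, and polyA RNA of 3 biological replicates per genotype was sequenced. Genotype names here are those of the labels. *sma-9* mRNA was at 173, 213 and 219 CPM in libraries labeled *sma-9*, against 87.6, 89.4 and 119.1 CPM in wild-type ones. CPM are counts scaled to the product of the library total and its normalization factor. Counts over the whole gene do not check this allele. No animal treatment other than genotype distinguished the 6 libraries in the labels.

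In *C. elegans* the cuticle is replaced at every molt by the underlying epidermis, and its collagen genes are transcribed in repeating waves within each larval stage, with the furrow collagens among the earliest. The lining of the pharynx is a separate cuticle, rich in disordered proteins. Heterochronic genes such as *lin-14*, *lin-28* and *hbl-1* time the larval fates of epidermal cells and are known for declining as larvae pass from one stage to the next.

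The libraries of the division held 69284675 to 79350040 reads on genes. With the normalization factors applied, 3 reads correspond to 0.035 to 0.0449 CPM. The ranges of total reads overlapped between the groups, but 3 properties did not. The normalization factors were 0.924 to 0.978 in low-numbered and 1.01 to 1.08 in high-numbered libraries. The 100 most abundant genes took 28.6% to 28.9% of the reads in low-numbered and 26.2% to 26.9% in high-numbered libraries, and 19929 to 20341 genes had a read in low-numbered libraries, against 20760 to 21231 in high-numbered ones. Their part in the differences below was not tested. Markers of other stages were low throughout, with the summed level of 9 embryonic genes at 2.55 to 3.2 CPM in low-numbered and 1.92 to 2.64 CPM in high-numbered libraries, and that of 13 yolk, egg and adult genes at 42.8 to 43.7 CPM in low-numbered and 35 to 41.2 CPM in high-numbered libraries. These are bulk samples of whole worms, in which fewer cells of a type and less RNA per cell cannot be told apart.

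A gene was said to follow the division when its low-numbered values lay beyond its high-numbered values, in the same direction, both in wild-type and in *sma-9*, and when the difference fitted with genotype as a covariate was at least 1 on the log2(CPM + 1) scale, that is 2-fold. Of 12861 genes that reached 1 CPM in 3 or more libraries, 175 (1.36%) were higher in the low-numbered libraries and 15 (0.117%) were lower. The median difference was 1.24 among the 175 genes and −1.21 among the 15, and only 5 genes were higher and 1 lower by 4-fold or more. With equal library totals 30 genes were lower, 18.9% of those that followed against 7.89%. Leaving out *sma-9* 1 gave 267 higher and 58 lower genes, and leaving out *sma-9* 3 gave 25 lower ones. Without the condition on size, 3427 genes (26.6%) were higher and 3024 (23.5%) lower in low-numbered libraries without overlap in either genotype. The median difference of all genes was 0.0134. The limit of 2-fold cut through a continuous range, with *abu-10* just inside it at 1.004 and *col-150* just outside at 0.99, and on the other side *ztf-2* just inside at −1.03 and *mab-10* and *hbl-1* just outside at −0.996 and −0.99.

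Epidermal cuticle collagens formed the largest named family. Of 90 *col* genes tested, 28 (31.1%, against 1.36% of all genes) were at least 2-fold higher in the low-numbered libraries and none was 2-fold lower. The median difference of the family was 0.65, with 74 members above 0. Without overlap 59 were higher and 4 lower, against 26.6% and 23.5% of all genes. Without wild-type 3, 18 *col* genes reached 2-fold. *col-77* (WBGene00000653, chromosome II, 8358228 to 8359381) was at 209, 191 and 232 CPM in the low-numbered libraries (wild-type 1, wild-type 2 and *sma-9* 1, the order used for all low-numbered values), against 53.1, 85.9 and 101.1 CPM in the high-numbered ones (wild-type 3, *sma-9* 2 and *sma-9* 3). All 3 low-numbered values lay above all high-numbered ones, and wild-type 3 was lowest, giving a difference of 1.60 (SE 0.19), or 3.03-fold. The largest difference among collagens was that of *col-145*, 1.94 (SE 0.33), with 88.5, 52.1 and 37.4 CPM against 13.3, 11.1 and 11.9 CPM. *col-133* followed at 1.86 and *col-157* at 1.66. Abundant members also took part, as *col-125* was at 2284, 2120 and 1972 CPM in low-numbered libraries, against 740, 1007 and 1155 CPM in high-numbered ones. At the other end of the family, *col-98* had a difference of −0.69 (SE 0.55).

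Collagens that set body shape and are named for their mutant phenotypes fell into 2 groups, taken as separate lists by the cuticle layer they are known to build. Of the 6 furrow collagens, which mark the annular furrows, none followed the division, 4 were lower in low-numbered libraries without overlap, against 23.5% of all genes, and the median difference was −0.18, or −0.30 with equal totals. With 0.117% of all genes following downward, the absence of followers among 6 genes is no result. *dpy-7* was at 451, 412 and 353 CPM in low-numbered libraries, against 499, 383 and 400 CPM in high-numbered ones (−0.18, SE 0.05), and *dpy-2* and *dpy-10* both differed by −0.30. The wild-type and *sma-9* values of *dpy-7* overlapped across genotypes, although within each genotype the low-numbered ones were lower. All 12 other body shape collagens tested had positive differences, with a median of 0.72. Of them 9 were higher without overlap and 2 reached 2-fold, against 26.6% and 1.36% of all genes. *dpy-13* (WBGene00001074, chromosome IV, 4235614 to 4236710) was at 2649, 3780 and 2767 CPM in low-numbered libraries, against 1648, 1185 and 1344 CPM in high-numbered ones (1.04, SE 0.20). The other was *dpy-4* at 1.01, and below the limit lay *dpy-5* at 0.97, *sqt-1* at 0.87 and *rol-6* at 0.78. With equal library totals or quantile normalization neither *dpy-13* nor *dpy-4* reached 2-fold, while all 12 stayed positive. Neither did so without wild-type 2 or without *sma-9* 2.

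**Figure D1:**
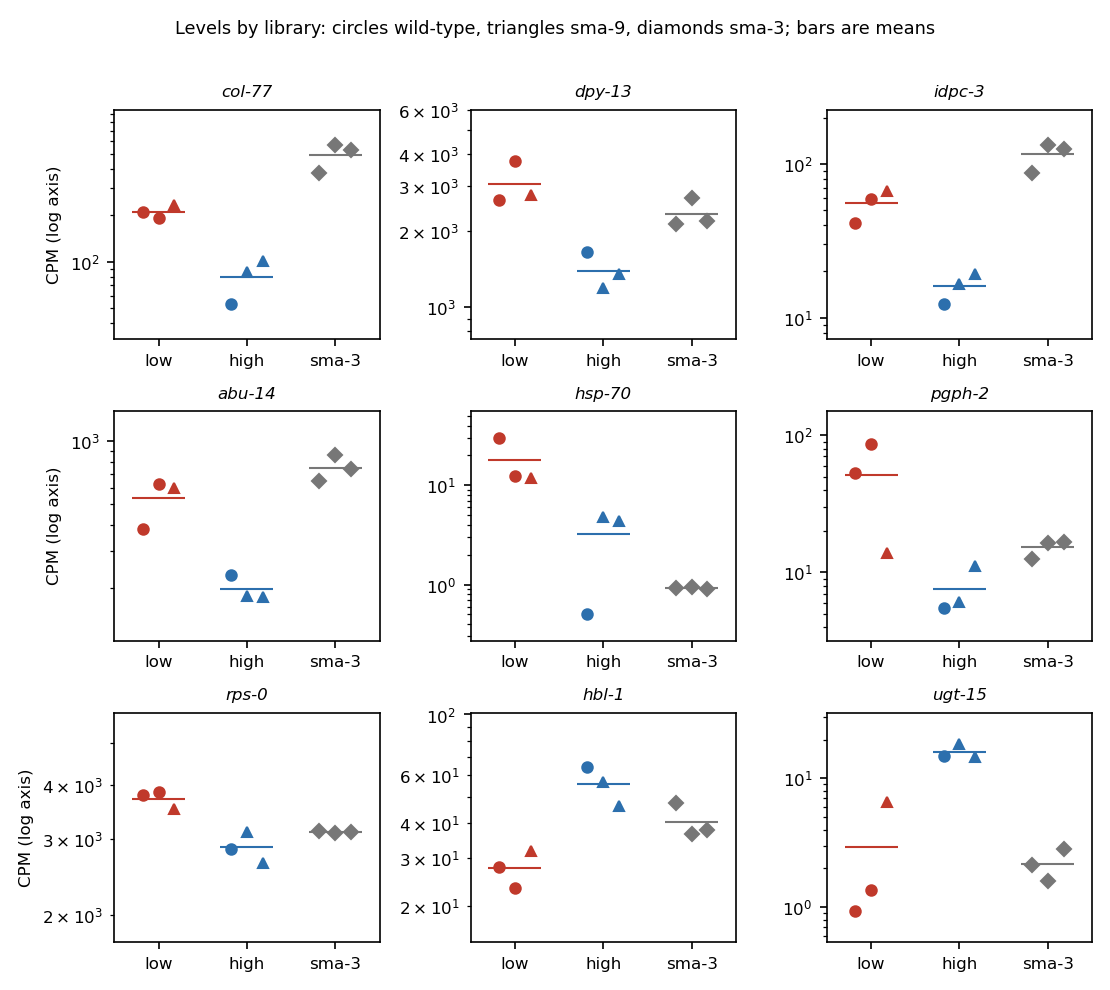
CPM (log axis) of 9 genes in each library, in low-numbered libraries, high-numbered libraries and the 3 *sma-3* libraries, with circles for wild-type, triangles for *sma-9*, diamonds for *sma-3* and bars for group means. The panels of *col-77*, *dpy-13*, *idpc-3*, *abu-14* and *rps-0* place all 3 low-numbered values above all high-numbered ones, those of *hbl-1* and *ugt-15* below them, and *hsp-70* shows wild-type 3 at 0.50 CPM far under the other 5 libraries.

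Genes of the pharyngeal cuticle were higher in the low-numbered libraries as well. The *abu* and *phat* lists, which encode glutamine- and asparagine-rich or mucin-like proteins of the pharynx lining and glands, held 18 tested genes. Of these, 10 followed the division, against 1.36% of all genes higher, and the median difference was 1.03. Without *sma-9* 1, 6 of the list were at least 2-fold higher and 1 was lower. *abu-14* (WBGene00004174, chromosome II, 9225186 to 9227214) was at 380, 629 and 597 CPM in low-numbered libraries, against 229, 183 and 180 CPM in high-numbered ones (1.40, SE 0.31). *abu-6* had the largest difference of the list, 1.76 (SE 0.12), followed by *abu-7* at 1.46, *abu-14* and *abu-11* at 1.39. The 3 negative members were *phat-5* at −0.79, *phat-8* at −0.30 and *phat-3* at −0.18.

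The *idpa*, *idpb*, *idpc*, *idpp* and *appg* genes, also named for disordered proteins of the pharyngeal cuticle, were grouped only after the values were seen. Of 33 tested, 23 were at least 2-fold higher and 28 were higher without overlap, against 1.36% and 26.6% of all genes. The median difference was 1.20. With log2(CPM + 5) the median was 0.76 and 10 of them reached 2-fold. *idpc-3* (WBGene00044011) was at 41.5, 59.5 and 66.99 CPM in low-numbered libraries, against 12.25, 16.7 and 19.2 CPM in high-numbered ones, a difference of 1.89 (SE 0.19) that was 1.93 within wild-type and 1.85 within *sma-9*. *idpc-5* differed by 1.84. Both lie with *idpc-4*, *idpc-6*, *idpc-7* and *pqn-63* in a run of 6 genes on chromosome V (9616031 to 9629214) in which every tested gene followed the division. Counts of such similar neighbors could have been split among them, as the assignment of multiply mapping reads is not given in the sources used here. Of the 48 tested *pqn* genes, named for prion-like Q/N-rich stretches and grouped in the same way, 6 were at least 2-fold higher, against 1.36% of all genes.

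Smaller numbers of other secreted epidermal genes followed. Among 64 tested genes of the hedgehog-related and Patched-related list, 5 were at least 2-fold higher, against 1.36% of all genes. All 5 encode hedgehog-related ligands of the Groundhog and Ground-like types. *grl-16* was at 654, 1000 and 890 CPM in low-numbered libraries, against 289, 312 and 428 CPM in high-numbered ones (1.38, SE 0.28), and *grd-6*, *grd-14* and *grl-4* differed by 1.44, 1.27 and 1.16. Patched-related receptors had differences on both sides, from −0.72 for *ptr-10* to 0.65 for *ptr-16*. Of 28 cuticlin and zona pellucida genes, which build cuticle ridges and apical matrix, *cut-2* (1.30) and *cutl-4* (1.12) followed, against 1.36% of all genes. The list's median was 0.13, but −0.05 without *sma-9* 1 and 0.05 without *sma-9* 2. *cut-2* was at 1597, 2729 and 1985 CPM in low-numbered libraries, against 889, 668 and 891 CPM in high-numbered ones. All of these low-numbered values exceeded the highest high-numbered value.

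Components of the precuticle, the transient matrix laid down before a new cuticle, had differences of both signs. Of 26 tested members 12 were lower and 5 higher in low-numbered libraries without overlap, against 23.5% and 26.6% of all genes, and none reached 2-fold, as few genes did. The median of −0.13 ranged from −0.29 without *sma-9* 1 to −0.05 without wild-type 3, and was −0.07 without wild-type 1. *noah-1*, encoding a zona pellucida protein of this matrix, was at 1135, 1047 and 809 CPM in low-numbered libraries, against 1867, 1385 and 1147 CPM in high-numbered ones (−0.71, SE 0.11). The fibrillin-related *fbn-1* differed by −0.99, the protease inhibitor gene *mlt-11* by −0.73, *let-653* by −0.58 and *noah-2* by −0.52. Higher in low-numbered libraries were the astacin protease genes *nas-6* (0.93) and *nas-36* (0.72), the carboxypeptidase gene *suro-1* (0.85) and the molting gene *mlt-10* (0.61).

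**Figure D2:**
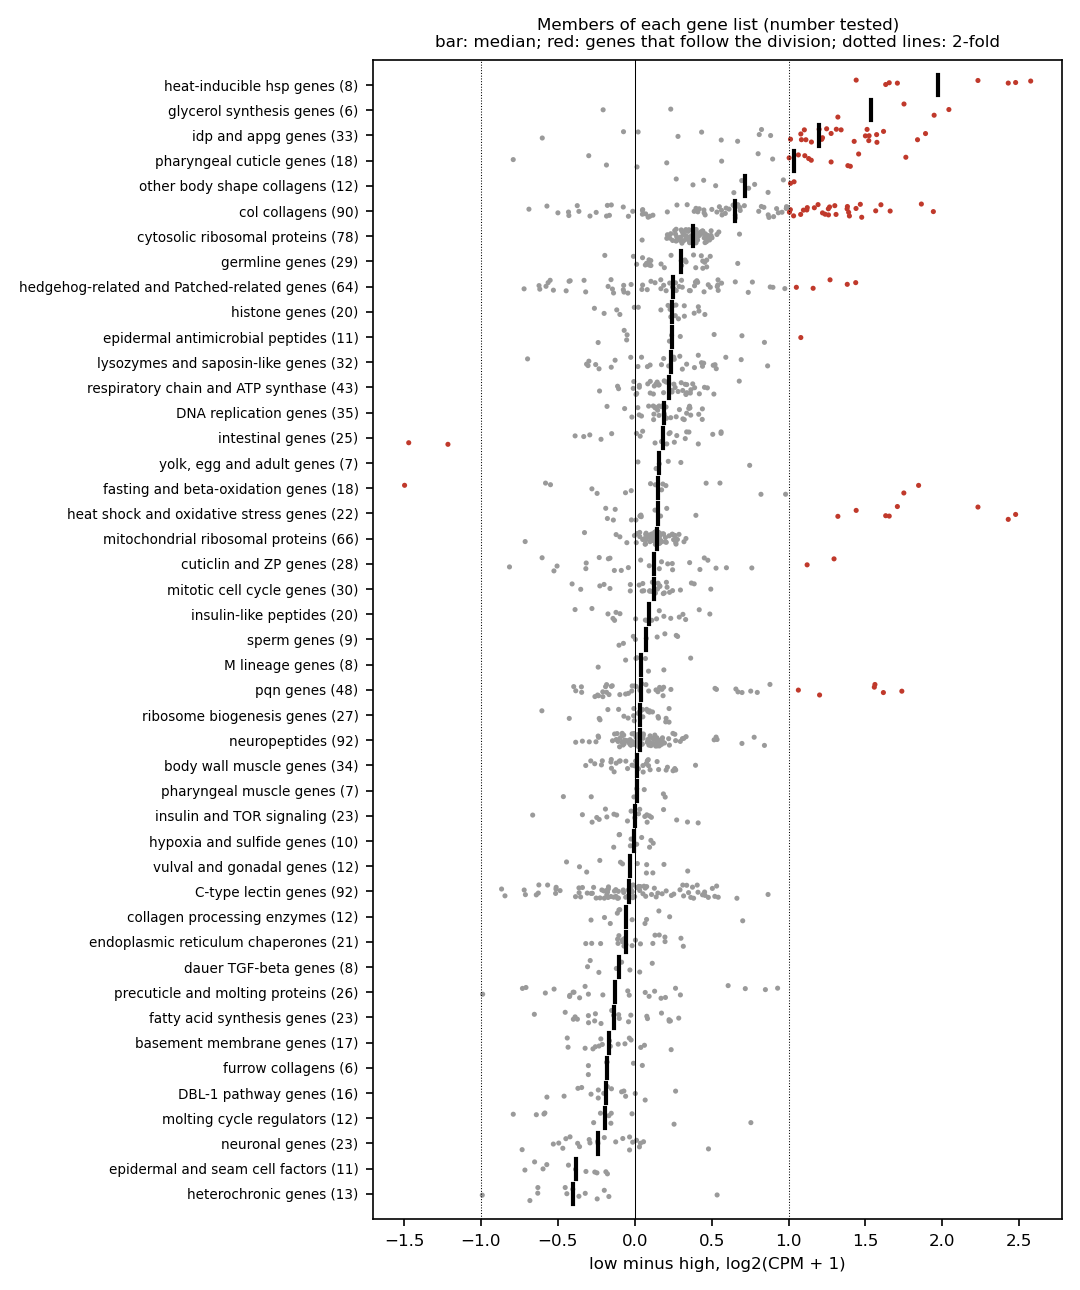
Difference between low-numbered and high-numbered libraries, on the log2(CPM + 1) scale, for every tested member of the gene lists with at least 6 tested members, ordered by median, with a bar at each median and members that follow the division in red. The *col* and pharyngeal cuticle lists reach beyond the dotted 2-fold lines on the positive side, with medians of 0.65 and 1.03, while heterochronic genes and epidermal and seam cell factors have medians of −0.40 and −0.39.

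Developmental timing genes lay on the negative side, all short of 2-fold. Of 13 heterochronic genes tested, 12 had negative differences and 9 were lower in low-numbered libraries without overlap, against 23.5% of all genes, with a median of −0.40. Without wild-type 3 the median was −0.23, with 11 negative differences. *hbl-1*, encoding a Hunchback-like transcription factor, was at 27.7, 23.2 and 31.6 CPM in low-numbered libraries, against 64.2, 56.5 and 46.3 CPM in high-numbered ones (−0.99, SE 0.22). Every low-numbered value lay below every high-numbered one. The argonaute gene *alg-1* differed by −0.68, the nuclear receptor gene *daf-12* and the RNA-binding *lin-41* both by −0.63, *lin-28* by −0.45, *lin-14* by −0.44, *lin-66* by −0.40, *dre-1* by −0.32 and *alg-2* by −0.20. *din-1* (−0.36), *lin-29* (−0.24) and *lin-42* (−0.17) overlapped in at least 1 genotype. The exception was *lin-46*, known as a target that LIN-28 represses, with 17.5, 24.3 and 18.5 CPM in low-numbered libraries, against 13.3, 11.3 and 14.9 CPM in high-numbered ones (0.54, SE 0.21).

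Regulators of the molting cycle were mostly on the same side. Of 12, 10 had negative differences and 6 were lower without overlap, against 23.5% of all genes. Their median of −0.20 was −0.10 without wild-type 1 or without wild-type 3, and −0.38 without *sma-9* 1. With a block for replicate number it was −0.04, with 5 positive and 7 negative differences. *blmp-1*, a zinc finger factor of the cycle, was at 85.6, 92.2 and 85.1 CPM in low-numbered libraries, against 170, 136 and 133 CPM in high-numbered ones (−0.79, SE 0.09), and the nuclear receptor genes *nhr-23* and *nhr-91* differed by −0.64 and −0.58 and *myrf-1* by −0.59. *myrf-2* (−0.27), *nhr-41* (−0.22), *nhr-25* (−0.16), *kin-20* (−0.15) and *nhr-85* (−0.02) differed less. *bed-3* (0.26) and *grh-1* (0.76) were the positive ones, and for *grh-1* the difference was 0.06 within wild-type and 1.45 within *sma-9*. All 11 tested epidermal and seam cell factors had negative differences, 10 of them without overlap, against 23.5% of all genes, with a median of −0.39. Without wild-type 3 that median was −0.21 and 1 member was positive. *elt-1*, a GATA factor of epidermal fate, was at 14.5, 14.9 and 18.4 CPM in low-numbered libraries, against 24.2, 25.5 and 26.04 CPM in high-numbered ones, and the engrailed gene *ceh-16* differed by −0.71.

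Growth genes formed the widest pattern, below 2-fold. All 78 tested genes for cytosolic ribosomal proteins had positive differences and 77 were higher without overlap, against 26.6% of all genes, with a median of 0.38 and a highest value of 0.68. Together they took 156000 to 156500 CPM in the low-numbered libraries, against 118900 to 131100 CPM in the high-numbered ones. *rps-0* was at 3785, 3843 and 3524 CPM in low-numbered libraries, against 2847, 3119 and 2640 CPM in high-numbered ones (0.36, SE 0.09). With equal totals 76 of 77 were positive with a median of 0.26, and with quantile normalization 70 of 78 were, with a median of 0.11. The 27 ribosome biogenesis genes had a median of 0.03 and were on both sides of 0, and that median was negative with equal totals (−0.09) and with quantile normalization (−0.03).

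DNA replication genes had a median of 0.19, with 32 of 35 positive and 27 higher without overlap, against 26.6% of all genes. *pcn-1*, encoding the replication clamp PCNA, was at 97.1, 93.3 and 103 CPM in low-numbered libraries, against 77.4, 71.8 and 64.9 CPM in high-numbered ones (0.44, SE 0.10). Of 43 respiratory chain and ATP synthase genes, 38 were positive (median 0.22), as were 27 of 29 germline genes (median 0.30) and 60 of 66 genes for mitochondrial ribosomal proteins (median 0.14). With equal totals the medians of these 4 lists stayed positive, between 0.02 and 0.18, but 9 germline and 25 mitochondrial ribosomal genes were then negative. With a block for replicate number 17 of 29 germline genes were positive (median 0.08), as were 28 of 43 respiratory chain and ATP synthase genes (median 0.07). Mitochondrially encoded genes were not analysed here.

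Neuronal and matrix genes were lower in the low-numbered libraries by small amounts. Of 23 neuronal genes, 18 had negative differences and 13 were lower without overlap, against 23.5% of all genes, with a median of −0.24, and *unc-31*, needed for neuropeptide release, was lowest at −0.73. Basement membrane genes had a median of −0.16, with *lam-2*, encoding laminin gamma, at −0.44. Fatty acid synthesis genes had a median of −0.14, which was −0.08 without *sma-9* 1, and the fatty acid synthase gene *fasn-1* was at 934, 795 and 836 CPM in low-numbered libraries, against 1538, 1154 and 1165 CPM in high-numbered ones (−0.65, SE 0.13). Body wall muscle genes were balanced, with 18 positive and 16 negative differences, and 25 were negative with equal totals. No member of the neuropeptide list (92 tested, median 0.03) or of the C-type lectin list (92 tested, median −0.04) followed the division, nor did any of 23 insulin and TOR signaling genes. At shares of 1.36% higher and 0.117% lower over all genes, these absences are no result.

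Among 16 genes of the DBL-1 pathway, in which the sequenced mutants lie, 13 had negative differences and 9 were lower without overlap, against 23.5% of all genes. None followed the division, which is no result for 16 genes at shares of 1.36% and 0.117% over all genes. The type II receptor gene *daf-4* was at 45.9, 47.6 and 57.01 CPM in low-numbered libraries, against 78.8, 79.8 and 71.6 CPM in high-numbered ones (−0.57, SE 0.11). The coreceptor genes *sma-10* (−0.46), *unc-40* (−0.35) and *drag-1* (−0.18), *sma-9* (−0.37), *adt-2* (−0.28), the type I receptor gene *sma-6* (−0.24), *tsp-21* (−0.20) and the glypican gene *lon-2* (−0.15) were also lower without overlap. *crm-1* (−0.24), *mab-31* (−0.09), *sma-4* (−0.07), *sma-2* (−0.06), the ligand gene *dbl-1* (0.00) and *sma-3* (0.07) overlapped. *lon-1*, known as a gene that the pathway represses, was the single member higher without overlap, at 0.27.

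A few heat-inducible loci had the largest differences, and these depended on wild-type 3. The list of heat shock and oxidative stress genes they belong to held 22 tested genes with a median of 0.15. Of these genes 8 were at least 2-fold higher, against 1.36% of all genes, and 5 were negative. The median of the list was 0.09 without *sma-9* 3 and 0.23 without wild-type 3. No endoplasmic reticulum chaperone (21 tested, median −0.06) and no hypoxia or sulfide gene (10 tested, median −0.01) followed. That is no result at shares of 1.36% higher and 0.117% lower over all genes. The 8 tested loci of *hsp-16*, *hsp-70* and *F44E5.5*, which encode heat-inducible chaperones and were set apart after their values were seen, all followed the division. *hsp-70* (WBGene00002026, chromosome I, 9320325 to 9322519) was at 30.2, 12.4 and 11.7 CPM in low-numbered libraries, against 0.50, 4.83 and 4.38 CPM in high-numbered ones (2.48, SE 0.86). *hsp-16.2* was at 45.8, 15.0 and 29.4 CPM in low-numbered libraries, against 0.94, 26.9 and 12.4 CPM in high-numbered ones (2.23, SE 1.13), so that its groups overlapped across genotypes. *hsp-16.41* (2.43) and *F44E5.5* (2.58) were alike, and the paired *hsp-16.1* and *hsp-16.48* loci on chromosome V (9087293 to 9090604) differed by 1.44 to 1.71. Their near-identical copies make the values of single loci uncertain. Without wild-type 3, 2 of the 8 loci reached 2-fold. The constitutive chaperone genes *hsp-1* (0.21) and *hsp-90* (0.04) overlapped.

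Glycerol genes showed a like dependence on wild-type 3, while 2 fasting genes stayed at least 2-fold higher without it. *pgph-2*, one of 3 neighboring genes on chromosome V for glycerol-3-phosphate phosphatases, was at 53.0, 86.8 and 13.8 CPM in low-numbered libraries, against 5.45, 6.11 and 11.1 CPM in high-numbered ones. Its difference of 2.04 (SE 0.87) was 3.42 within wild-type and 0.67 within *sma-9*, and *pgph-3* differed by 1.95, *pgph-1* by 1.75 and the dehydrogenase gene *gpdh-1* by 1.32. Of 6 glycerol synthesis genes tested, grouped only after the values were seen, these 4 were at least 2-fold higher, against 1.36% of all genes. Of the list 5 had positive differences, and 1 was lower without overlap, at −0.21. Without wild-type 3 none of these 4 genes followed the division. The fasting list held 18 tested genes, of which 2 were at least 2-fold higher and 1 lower, against 1.36% and 0.117% of all genes. The acyl-CoA synthetase gene *acs-2* was at 84.7, 124 and 55.0 CPM in low-numbered libraries, against 17.6, 27.4 and 25.7 CPM in high-numbered ones (1.75, SE 0.46). The acyl-CoA dehydrogenase gene *acdh-2* differed by 1.85. Without wild-type 3 the differences, then those within *sma-9*, were 1.02 for *acs-2* and 1.19 for *acdh-2*. Without *sma-9* 1 or *sma-9* 2 more of the list were at least 2-fold higher, 4 and 3 genes, with 1 lower in each case.

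The 15 genes lower in low-numbered libraries formed no family. *ugt-15*, of the glucuronosyltransferase family, had the largest difference, −2.06 (SE 0.51), with 0.93, 1.36 and 6.52 CPM in low-numbered libraries, against 15.0, 18.5 and 14.8 CPM in high-numbered ones. The metallothionein gene *mtl-2*, expressed in the intestine, was at 15.5, 12.8 and 15.0 CPM in low-numbered libraries, against 31.3, 41.6 and 36.8 CPM in high-numbered ones (−1.22, SE 0.13). The other follower among 25 tested intestinal genes was *dod-24* (−1.47), while 18 of the list were positive and its median was 0.18, or 0.08 without wild-type 1. With a block for replicate number that median was −0.12. Named members also included the lysosomal lipase gene *lipl-1* (−1.497), the sphingomyelinase gene *asm-3* (−1.21), the noncoding RNA gene *linc-22* (−1.17) and the zinc finger gene *ztf-2* (−1.03). For 2 of the 15 genes every low-numbered value was below 1 CPM.

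The 2 genotypes contributed unequally. Of the 175 genes, 56 had the larger difference within *sma-9* and the others within wild-type, with medians of 1.12 within *sma-9* and 1.47 within wild-type. The widest gap was in the heat-inducible loci, with medians of 0.81 within *sma-9* and 3.23 within wild-type, while the *idp* and *appg* genes had medians of 1.21 within *sma-9* and 1.09 within wild-type. Across all 12861 genes the within-genotype differences had a Pearson's r of 0.595 and a Spearman's rho of 0.574, as a description across genes, which are not independent replicates. Each difference rests on 3 libraries, 1 of them alone in its group.

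**Figure D3:**
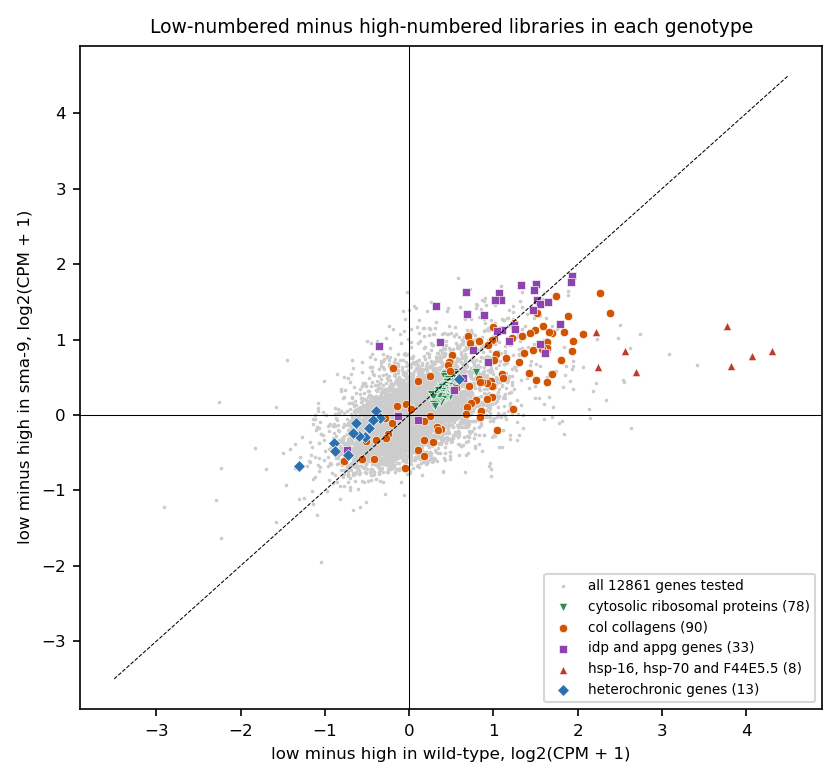
Difference between low-numbered and high-numbered libraries within wild-type (horizontal) and within *sma-9* (vertical), on the log2(CPM + 1) scale, for 12861 genes in gray and 5 gene groups in color, with the dashed line marking equal differences. The heat-inducible loci lie far to the right of the line (medians 0.81 within *sma-9* and 3.23 within wild-type), the *idp* and *appg* genes lie around it, and the ribosomal protein genes form a tight cluster above 0 on both axes.

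Whether the difference itself depended on genotype was fitted as an interaction. The spread within groups that it is set against was itself lowered by the choice of the division. With limma on 4 group means and 2 residual degrees of freedom, 0 genes (0%) passed a Benjamini-Hochberg adjusted p of 0.05, while 793 had an unadjusted p under 0.05, and voom likewise called 0 genes with 782 under 0.05. The smallest adjusted p was 0.413, for *F31F7.1*, whose difference was 0.34 within *sma-9* and 1.95 within wild-type. *F19B2.5*, *nhr-6*, *F25E5.8* and *Y94H6A.10* came next, with limma adjusted p from 0.415 to 0.479 and differences between −0.10 and 0.05 within *sma-9* and between 1.18 and 1.81 within wild-type. For all 5, wild-type 3 was the lowest of the 6 libraries. Without it only *sma-9* held both groups, and the fitted differences of *F19B2.5* and *nhr-6* were those within *sma-9*, −0.08 and −0.10. Leaving out wild-type 1 gave 248 calls and leaving out wild-type 2 gave 517, with 1 residual degree of freedom each.

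The libraries of a group were not alike. Over the 175 genes, the level centered on the mean of the 6 libraries had medians of 0.31, 0.75 and 0.66 in low-numbered libraries, against −0.93, −0.61 and −0.30 in high-numbered ones. Wild-type 1, with the smallest number, was the lowest of the low-numbered libraries for 123 of the 175 genes, and *sma-9* 3, with the largest number, was the highest of the high-numbered ones for 134. The values thus did not follow the number step by step. At the border of the division, numbers 7 and 8 were the libraries with medians 0.75 and 0.66 in the low-numbered group, against −0.61 in the high-numbered one. In a principal component analysis of all tested genes scaled to equal variance, the first component (39.1% of variance) had scores of 72.6, 83.4 and 30.1 in low-numbered libraries, against −44.7, −73.4 and −68.1 in high-numbered ones. Without scaling, the first component (48.3%) placed *sma-9* 1 at −3.77 and wild-type 3 at 2.47, between the other *sma-9* libraries at −25.07 and −23.7 and the other wild-type libraries at 20.6 and 29.45.

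**Figure D4:**
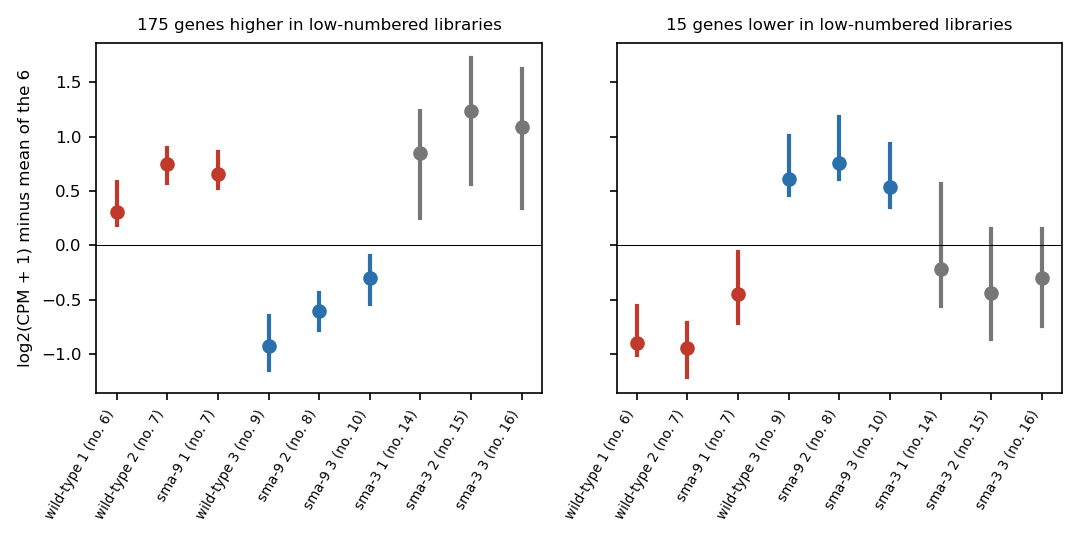
Median and quartiles (dot and bar) of the level centered on the mean of the 6 libraries, in log2(CPM + 1), for the 175 genes higher and the 15 genes lower in low-numbered libraries, with low-numbered libraries in red, high-numbered in blue and *sma-3* in gray. Low-numbered medians of the 175 genes lie between 0.31 and 0.75, high-numbered ones between −0.93 and −0.30, and *sma-3* ones between 0.85 and 1.24.

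The *sma-3* libraries, which had no part in the choice of genes, differed from the rest in genotype and number at once, and the 2 cannot be told apart. For 86 of the 175 genes (49.1%) all 3 *sma-3* values lay above all 6 others, as they did for 9.92% of all tested genes. For 146 of the 175 they lay above all high-numbered values, as they did for 2482 of 12861 tested genes. The 175 genes were chosen for low values in the high-numbered libraries, so the count of 146 is in part built in. This varied between families. All *sma-3* values exceeded all others for 19 of the 28 collagen genes, 9 of the 10 pharyngeal cuticle genes and 15 of the 23 *idp* and *appg* genes, with *col-77* at 376, 569 and 530 CPM in *sma-3* libraries. For the 8 heat-inducible loci they were instead below all low-numbered values, as they were for 3390 of 12861 tested genes. These loci were set apart for their high low-numbered values, so this is in part built in. For 3 of the 8 the *sma-3* values lay below all 6 others, as for 1701 of all tested genes. *hsp-70* was at 0.92, 0.94 and 0.90 CPM in *sma-3* libraries. Furrow collagens were lowest in *sma-3*, with centered medians of −0.68, −1.13 and −1.34, against 0.11, −0.04 and −0.19 in low-numbered and 0.33, −0.10 and −0.10 in high-numbered libraries. Ribosomal protein genes lay between the groups, with centered medians of −0.06, −0.01 and −0.01 in *sma-3*, against 0.16 to 0.19 in low-numbered and −0.26 to −0.09 in high-numbered libraries.

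**Figure D5:**
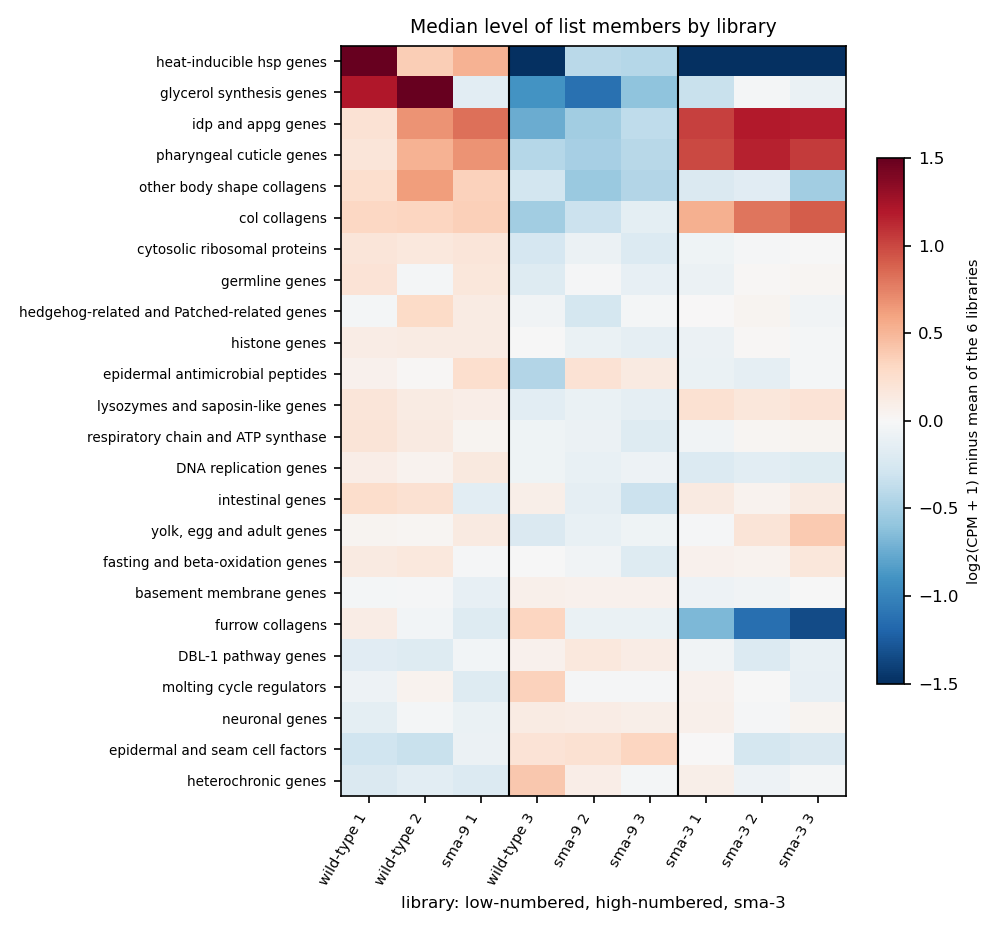
Median level of each gene list by library, as log2(CPM + 1) minus the mean of the 6 libraries of the division, for lists whose median difference was at least 0.15 in size, with low-numbered libraries left, high-numbered in the middle and *sma-3* right, and colors capped at 1.5 in either direction. Pharyngeal cuticle and *col* genes are highest in *sma-3*, heat-inducible loci are highest in wild-type 1, and furrow collagens are lowest in *sma-3* (−1.34 in replicate 3).

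The genes that were higher in low-numbered libraries shared features that the division did not use. Their exons summed to a median of 963 bases, against 1450 bases over all tested genes, and 56% of them were under 1000 bases, against 27.4% of all. On chromosome V lay 35.4% of them, against 20% of all, and 24% stood directly beside another gene of the set among the tested genes. Runs of at least 3 included *abu-15*, *abu-6* and *abu-7* on chromosome V (5158602 to 5164782) and the 3 *pgph* genes there (5752352 to 5771768). Many members of 1 family are neighbors, so these features are not independent of one another.

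With the division as a term, the comparison of *sma-9* with wild-type gave more calls from the same 6 libraries. The division had been chosen beside genotype on these values, so the fit with the term is given as a description and only the fit without it as a test. Limma called 816 genes (6.34%), 345 higher and 471 lower in *sma-9*, against 442 genes (3.44%), 218 higher and 224 lower, without the term. With equal totals the split with the term was 457 higher and 295 lower. Of the 442 genes, 441 were also called with the term, and the median SE of a genotype difference was 0.099 with the term and 0.128 without it. Since the term was chosen for the spread it takes up, this lower SE is in part built in. Calls with the term numbered 184 to 484 when a library other than wild-type 1 was left out, the fewest without *sma-9* 1, and calls without it numbered 58 to 183 when one other than wild-type 3 was, the fewest without *sma-9* 3. *lon-1* was higher in *sma-9* by 1.39 (SE 0.09) with the term and by 1.30 (SE 0.15, limma adjusted p = 0.00347) without it, at 303, 241 and 234 CPM in *sma-9*, against 100.46, 116 and 95.3 CPM in wild-type. *sma-9* mRNA itself was higher by 0.91 (SE 0.04) with the term and by 1.03 (SE 0.18, limma adjusted p = 0.015) without it.

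Of the 190 genes that followed the division, 7 were among the 816 genes, against 6.34% of all genes, and 0 of these 7 among the 442. Their spread with the term is small because they were chosen to follow it, so this count is a description. In *idpp-12*, one of the 7, levels were 29.4, 11.3 and 15.0 CPM in *sma-9*, against 14.4, 15.3 and 6.69 CPM in wild-type. The genotypes overlapped there, while within each number group *sma-9* was the higher one. For *col-77* the difference between *sma-9* and wild-type without the term was −0.02 (SE 0.77, limma adjusted p = 0.989), and for *dpy-13* it was −0.63 (SE 0.52, limma adjusted p = 0.487).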

How the data were processed

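PolyA RNA of whole late L2 worms was sequenced in 9 libraries. Per the labels and the study's methods, the authors mapped reads to WS245 with STAR (version 2.5.1a), counted them per gene and normalized with edgeR. They deposited log2 values of counts scaled to the product of the library total and its normalization factor (CPM). A prior averaging 2 reads had been added before the logarithm. Strand setting and handling of multiply mapping reads are not given in the sources used here. The prior was removed, and whole reads were recovered for 100% of values in each library, within 0.1 read. Of 46875 genes, 46821 matched the WBcel235 annotation, which gave names, positions (gene spans) and exon lengths.

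The analysis used log2(CPM + 1) of genes reaching 1 CPM in 3 or more of 6 libraries and limma (version 3.58.1, R version 4.3.3; plots with matplotlib 3.10.9), by lmFit and eBayes with trend, two-sided, with Benjamini-Hochberg adjustment. Low-high differences were fitted with genotype as a covariate and not tested. Members and gene lists were chosen with earlier results of these data known. Named were, per direction, the 10 largest differences with a mean of at least 10 CPM and a gene name, up to 4 following members per list, all DBL-1 pathway, molting cycle and heterochronic genes, and the 5 smallest interaction p. Other genes were chosen after their values were seen. The fit was tested on simulated data. The study calls the replicates biologically independent. The number is that of the file's column names. Alternatives were other pseudocounts, filters, scalings, voom, a replicate block, other call rules, all 9 libraries and each library left out.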

Additional observations from a re-analysis of the deposited data

How the results depend on the processing

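The numbers of genes at least 2-fold higher and lower in low-numbered libraries, 175 and 15, were 99 and 5 with a pseudocount of 5, 218 and 35 with 0.25, 155 and 9 with a mean of at least 5 CPM, 236 and 59 with voom, and 496 and 192 at 1.5-fold. With equal totals 30 were lower. Equal totals moved the median of all genes to −0.09, so that 18.9% of the genes that followed were lower, against 7.89%. Without wild-type 3 only *sma-9* held both groups, and without *sma-9* 1 only wild-type did, so calls and differences there are those within 1 genotype. Leaving out 1 library gave 142 to 267 higher (the most without *sma-9* 1) and 12 to 58 lower genes (58 without *sma-9* 1, 25 without *sma-9* 3), and 108 of the 175 genes were kept without wild-type 3. Collagen genes at least 2-fold higher numbered 18 to 36 (18 without wild-type 3), and pharyngeal cuticle genes 6 to 10. Without *sma-9* 1 a further pharyngeal cuticle gene was 2-fold lower. The interaction called 0 to 517 genes without 1 library, and could not be fitted without wild-type 3 or *sma-9* 1. Calls between *sma-9* and wild-type with the division numbered 184 to 1197 without 1 library, 457 without the filter and 1487 with the spread of all 9 libraries. Without the division they numbered 58 to 487 without 1 library, 271 with a mean of at least 5 CPM and 898 with all 9 libraries. Deviations of same-numbered replicates from their genotype means had correlations of 0.176, −0.635 and 0.244. The negative value is that of replicates 2, which lie on opposite sides of a division chosen from these values. Whether the title numbers pair the samples was therefore not tested. With the replicate block 409 genes were higher and 125 lower, and genotype calls numbered 448 with and 184 without the division. Of the 78 named genes none that followed the division changed sign under any alternative. Of the others, *dbl-1*, *sma-2*, *sma-3*, *sma-4*, *crm-1*, *mab-31*, *nhr-25*, *nhr-41*, *nhr-85*, *kin-20*, *lin-42*, *F19B2.5* and *nhr-6* did under at least 1. Depth did not limit these genes, since 3 reads are under 0.05 CPM.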
